A study of Mus musculus with 6 samples.

Results

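Genes of lipid uptake, storage and breakdown, the functions that define the lung lipofibroblast, were examined in perinatal mouse lung of Carm1 knockout and wild-type genotype. The set was the 9 genes Plin2, Cidec, Lpl, Cd36, Fabp4, Pparg, Tcf21, Pnpla2 and Lipe, and every probe set that the platform annotation assigned to one of them, under its present or an older symbol, was taken. These were 18 of 45101 probe sets, and the 9 genes are among 18193 that the annotation names on the array. Plin2 lies on mouse chromosome 4, Cd36 on 5, Pparg and Cidec on 6, Pnpla2 and Lipe on 7, Lpl on 8, Tcf21 on 10 and Fabp4 on 3. A probe set is the group of short oligonucleotide probes against the 3′ part of 1 or more transcripts, which together give 1 value.

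The lipofibroblast is an interstitial fibroblast of the alveolar wall that holds droplets of neutral lipid. It takes up fatty acids, stores them as triacylglycerol and hands lipid to the neighbouring alveolar type II cell, which uses it to make surfactant, and such cells are most prominent around birth. Pparg, a nuclear receptor that heterodimerises with the retinoid X receptor, drives the lipid programme, and Carm1, an arginine methyltransferase, is known as a coactivator of nuclear receptors that include Pparg. None of the 9 genes is specific to this cell: capillary endothelium also makes Cd36, Fabp4 and Lpl, and alveolar macrophages make Pparg, Plin2 and Lpl.

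Total lung RNA of 3 Carm1 knockout samples was compared with that of 3 wild-type samples, each on its own array. The knockout lungs were labelled as embryonic day 18.5, a stage that the design text gives to both genotypes, but the wild-type lungs were labelled neonatal. If those labels hold, genotype and age cannot be told apart. Strain, the construction of the knockout allele and the cells that lack the gene are not given in the sources used here. Nor is it said whether the 6 RNA samples came from separate animals or litters, so that a p-value weighs a difference against the spread of these samples and no wider one. In RNA of a whole tissue, fewer cells of a type and less RNA per cell cannot be told apart.

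The arrays had been scaled to 1 common level, with median signals from 106 to 121, and their number limits the precision of all values. Carm1 itself had signals of 814, 678 and 865 in wild type and 395, 374 and 511 in knockout (log2 difference −0.89, limma adjusted p = 0.105). All knockout values lay below all wild-type values, but the position of the probe set with respect to the deletion is not given. Bacterial control RNA was detected on wild-type arrays 1 and 3 only (median signals 579 and 375, against 3.77 to 14.1 on the other 4). Over the tested probe sets knockout array 1 correlated best with wild-type array 2 (r = 0.969), knockout array 2 with wild-type array 3 (0.965) and knockout array 3 with knockout array 2 (0.965). Transcripts of the sex chromosomes put 1 male and 2 females in each genotype.

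RefSeq promoter windows of mouse assembly GRCm38.p6, from 250 bases before to 50 bases after a transcription start, were at hand for 7 of the 9 genes, in 11 windows. Because Pparg and its partners bind repeats of a short nuclear receptor motif, the windows were searched for AGGTCA on both strands. It was present in 4 of the 11 windows, those of Plin2, Cd36 and 2 of the 3 Pparg starts, against 16.3% of all 32851 promoter windows. The 4 windows are shown because they belong to the droplet coat gene whose difference lay within the spread, the uptake gene whose groups did not overlap and the regulator itself. Each is given 5′ to 3′ on the strand of its gene, with capitals for AGGTCA, for CCAAT, for the TATA box TATAAA and for the GC box GGGCGG, on either strand; a match is a description of letters, not a bound site.

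Plin2 (chr4:86670010-86670309, minus strand): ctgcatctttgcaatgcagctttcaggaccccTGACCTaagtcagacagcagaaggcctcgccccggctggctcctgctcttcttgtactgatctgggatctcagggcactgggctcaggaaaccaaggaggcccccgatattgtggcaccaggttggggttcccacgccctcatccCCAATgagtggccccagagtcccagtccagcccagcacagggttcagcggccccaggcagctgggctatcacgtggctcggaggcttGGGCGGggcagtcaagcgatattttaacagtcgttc
Cd36 (chr5:17835847-17836146, minus strand): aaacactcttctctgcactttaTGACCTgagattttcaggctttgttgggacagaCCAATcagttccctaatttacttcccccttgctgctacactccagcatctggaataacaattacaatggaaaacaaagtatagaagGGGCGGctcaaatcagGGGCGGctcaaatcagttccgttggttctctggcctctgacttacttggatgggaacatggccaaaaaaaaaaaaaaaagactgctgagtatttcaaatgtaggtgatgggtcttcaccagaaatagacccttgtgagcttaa
Pparg, first start (chr6:115360894-115361193, plus strand): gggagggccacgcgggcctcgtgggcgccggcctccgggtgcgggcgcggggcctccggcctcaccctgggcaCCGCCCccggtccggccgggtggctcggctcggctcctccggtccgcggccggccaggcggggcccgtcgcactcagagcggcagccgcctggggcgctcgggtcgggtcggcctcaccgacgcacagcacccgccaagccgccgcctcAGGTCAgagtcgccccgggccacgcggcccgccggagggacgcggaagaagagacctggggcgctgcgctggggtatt
Pparg, second start (chr6:115362099-115362398, plus strand): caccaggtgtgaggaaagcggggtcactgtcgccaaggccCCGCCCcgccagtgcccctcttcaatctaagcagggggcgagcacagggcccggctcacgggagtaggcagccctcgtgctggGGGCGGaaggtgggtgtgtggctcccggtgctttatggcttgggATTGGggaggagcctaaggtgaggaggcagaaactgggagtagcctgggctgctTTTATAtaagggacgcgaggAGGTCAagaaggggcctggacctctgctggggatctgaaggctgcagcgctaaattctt

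In Plin2 the receptor motif AGGTCA began 218 bases before the start, in Cd36 228 bases before it, and at the Pparg starts 28 and 9 bases before. The second Pparg start also carried the 1 TATA box found among the 11 windows, where 13.6% of all windows hold one. CCAAT was found in 4 windows (all windows: 37.4%) and the GC box in 6 (all windows: 35.7%). The windows of Tcf21 and Cidec, and 1 of the 2 windows of Lipe, held none of the 4 motifs.

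Across the 9 genes, none of the probe sets passed an adjusted p of 0.05 between knockout and wild type. Of the 18 probe sets 13, standing for 8 genes, were bright enough to be tested (mean log2 value above the 40th percentile of the array, a signal of 59.7), and 0 of the 13 passed, where 8 of all 27022 tested probe sets did, or 0.0296%. At an unadjusted limma p under 0.05, 2 of the 13 were lower (all tested probe sets: 6.31%) and 2 were higher (all tested: 7.32%). The lower count was 5 without knockout array 1 and 1 without wild-type array 3 or without knockout array 3. In the full set the 2 lower ones were probe sets of Cd36, and the 2 higher ones were the tested probe sets of Fabp4. Both of these Fabp4 probe sets had an unadjusted limma p over 0.05 without wild-type array 3, knockout array 2 or knockout array 3. By sign alone 10 of the 13 were lower and 3 higher, and their median difference was −0.21 on the log2 scale, against 0.019 for all tested probe sets, of which 47.3% were lower. The members' median was −0.11 without knockout array 3 and −0.073 on the 4 arrays without bacterial RNA.

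**Figure D1:**
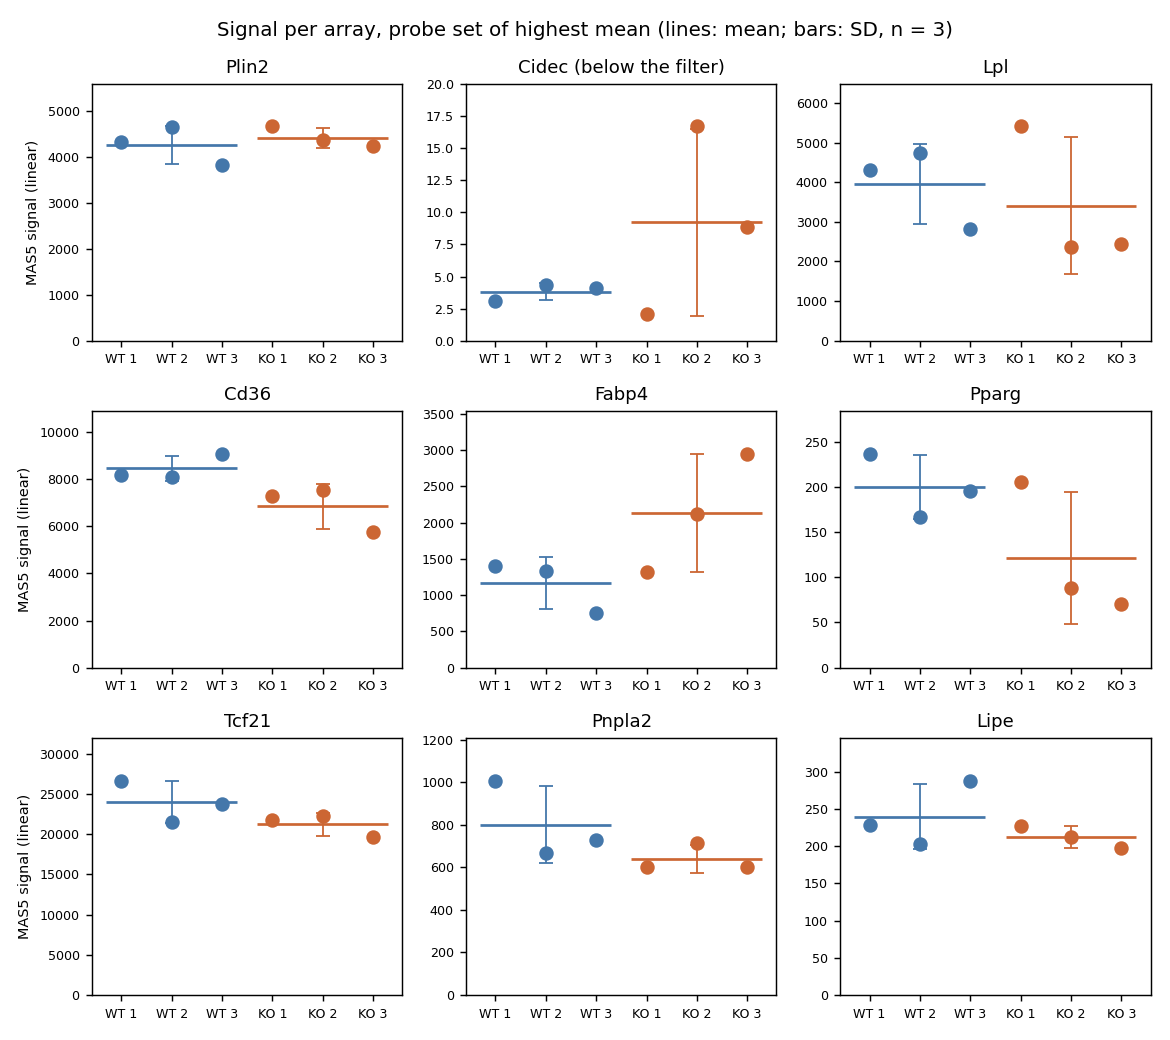
Deposited signal (linear scale, from 0) of each of the 9 genes on the 3 wild-type (WT, blue) and 3 knockout (KO, orange) arrays at the probe set of highest mean, with group means as lines and SD as bars. Cd36 is the 1 gene whose groups do not overlap; for Fabp4 and Pparg knockout array 1 lies inside the wild-type range and arrays 2 and 3 outside it, and for Lpl array 1 lies above and arrays 2 and 3 below it.

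Among the storage genes, Plin2, the coat protein of the lipid droplet and the usual marker of the lipofibroblast, did not differ between the genotypes beyond the spread of the arrays. Its 1 probe set gave 4329.7, 4646 and 3829.8 in wild-type lungs 1 to 3 and 4666, 4363 and 4234 in knockout lungs 1 to 3. The groups overlapped, with the 2 highest values split between the genotypes and means of 4269 ± 412 (SD, n = 3) in wild type and 4421 ± 222 (n = 3) in knockout. The log2 difference was 0.05 (95% confidence interval −0.18 to 0.28, limma adjusted p = 0.855), the narrowest interval among the 8 tested genes at their brightest probe sets. The sign of this small difference depended on the arrays and scaling used: it was −0.02 without wild-type array 3, the array with the lowest Plin2 signal, −0.07 among the arrays without bacterial RNA, and −0.0053 with arrays centred on their medians.

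Cidec, which promotes the fusion of droplets into a single large one in fat cells and is scarce in most other cells, was dim. Its probe set read 3.05, 4.33 and 4.09 in wild-type lungs 1 to 3 and 2.07, 16.7 and 8.90 in knockout lungs 1 to 3, all far under the brightness limit for testing, and it was among the dimmest 4.42% of probe sets by mean log2 value. The higher readings of knockout arrays 2 and 3 lay in a range where the arrays give no reliable order.

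Uptake of fatty acids was represented by Lpl, Cd36 and Fabp4. Lpl, the lipase that frees fatty acids from lipoproteins at the capillary wall, varied more within each genotype than between them. The signals were 4324, 4743 and 2819 in wild-type lungs 1 to 3 and 5417, 2372 and 2442 in knockout lungs 1 to 3. Knockout array 1 had the highest value of all 6 and knockout arrays 2 and 3 the lowest, so that the knockout range enclosed the wild-type range. Means were 3962 ± 1012 (SD, n = 3) in wild type and 3410.4 ± 1738 (n = 3) in knockout (log2 difference −0.29, 95% confidence interval −1.01 to 0.42, limma adjusted p = 0.731), and the second probe set, with 894 ± 168 and 800.0 ± 311, followed the same order of arrays closely (r = 0.891 over 6 arrays). Without knockout array 1 the difference of the first probe set was −0.68 (limma adjusted p = 0.255), and without wild-type array 3 it was −0.52. It was smaller without knockout array 2 (−0.09), knockout array 3 (−0.11) or wild-type array 2 (−0.15), and larger on the arrays without bacterial RNA (−0.59).

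Cd36, the scavenger receptor that moves long-chain fatty acids into the cell, was the 1 member whose groups were apart, lower in knockout at its 2 brighter probe sets, though not past the adjusted threshold. At its brightest probe set the signals were 8182, 8104 and 9084 in wild-type lungs 1 to 3 and 7265, 7545 and 5766 in knockout lungs 1 to 3. The groups did not overlap, and each knockout value lay under the lowest wild-type value. Means were 8456 ± 544 (SD, n = 3) in wild type and 6858 ± 957 (n = 3) in knockout, a log2 difference of −0.31 (95% confidence interval −0.58 to −0.04, limma adjusted p = 0.31), or 80.7% of the wild-type geometric mean, and an exact permutation test (two-sided) gave p = 0.1, the lowest value open to a 3 against 3 design. The second probe set read 4453, 3879 and 4252 in wild-type lungs 1 to 3 and 3463, 3588 and 2729 in knockout lungs 1 to 3, again without overlap (log2 −0.37, limma adjusted p = 0.256). Of all tested probe sets 9.36% lay lower without overlap and 10.7% higher, so a gap in 2 of 13 probe sets, both of 1 gene, is not far from the background of the array. At the third probe set the wild-type values were within 616 to 626, while the knockout values ran from 409 to 645, with that of array 2 above them all (log2 −0.33, limma adjusted p = 0.459).

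All 3 Cd36 probe sets were thus lower by a similar amount, from −0.31 to −0.37 on the log2 scale, and they tracked each other over the arrays (r = 0.949 and 0.845 with the brightest). Knockout array 3 was lowest at each of them. Without that array the difference at the brightest probe set was −0.19, and among the arrays without bacterial RNA it was −0.25, where wild-type array 2 alone stands for its genotype and is assumed to vary like the others.

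Fabp4, the cytoplasmic fatty acid carrier of fat cells, macrophages and capillary endothelium, differed in the opposite direction. Its brightest probe set gave 1405, 1339 and 752 in wild-type lungs 1 to 3 and 1324, 2119.6 and 2952 in knockout lungs 1 to 3. Knockout arrays 2 and 3 lay above all others, and knockout array 1 lay within the wild-type range. The means were 1165 ± 359.6 (SD, n = 3) in wild type and 2132 ± 814 (n = 3) in knockout, a log2 difference of 0.85 (95% confidence interval 0.14 to 1.56, limma adjusted p = 0.293, unadjusted p = 0.0236), with an exact two-sided permutation p of 0.3. The other bright probe set repeated the pattern at 496, 557 and 362 in wild-type lungs 1 to 3 and 524, 940.5 and 964 in knockout lungs 1 to 3 (log2 0.75, limma adjusted p = 0.27, r = 0.961 with the first). Wild-type array 3 was lowest at both, and without it the differences were 0.56 and 0.57. Without knockout array 1 they were 1.16 and 1.04 (limma adjusted p = 0.178 and 0.149). Without knockout array 3 they were 0.58 and 0.60 (limma adjusted p = 0.607 and 0.576), and on the arrays without bacterial RNA 0.60 and 0.49. The 2 remaining Fabp4 probe sets, with signals between 2.03 and 72.3, were too dim to be tested and did not follow this order.

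**Figure D2:**
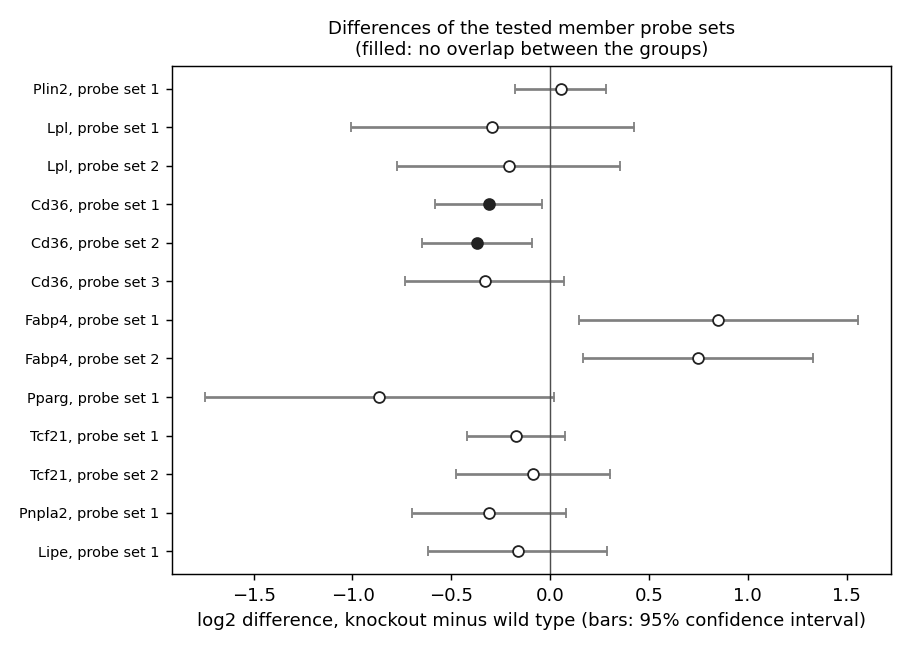
Log2 difference, knockout minus wild type, of the 13 tested probe sets of the 9 genes, numbered by falling mean signal within a gene, with 95% confidence intervals from the fit over all probe sets. The 2 filled points, both Cd36, are those whose groups do not overlap, and the intervals of these 2 and of both Fabp4 probe sets exclude 0 before adjustment.

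The regulators were Pparg and Tcf21. Pparg was dim, and 2 knockout arrays were low. The signals at its 1 probe set were 237, 166 and 196 in wild-type lungs 1 to 3 and 205, 88.4 and 70.5 in knockout lungs 1 to 3. Knockout arrays 2 and 3 lay under every other value, and knockout array 1 lay between wild-type arrays 3 and 1. Means were 199.5 ± 35.3 (SD, n = 3) in wild type and 121 ± 73.0 (n = 3) in knockout, with a log2 difference of −0.86 (95% confidence interval −1.75 to 0.02, limma adjusted p = 0.378) and an exact two-sided permutation p of 0.3. The difference became −1.32 without knockout array 1 (limma adjusted p = 0.175), −0.55 without knockout array 3 and −0.62 on the arrays without bacterial RNA. With a stricter filter at the 60th percentile, Pparg was too dim to be tested. This 1 probe set does not separate the transcripts that begin at the different Pparg starts shown above.

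Tcf21, a basic helix-loop-helix factor of lung mesenchyme that marks the lipofibroblast lineage, had a probe set brighter than 99.5% of all on the array. The values were 26656, 21509 and 23814 in wild-type lungs 1 to 3 and 21752, 22290.2 and 19653 in knockout lungs 1 to 3. Knockout array 3 was lowest and wild-type array 1 highest, and the other 4 arrays were interleaved. Means were 23993 ± 2578 (SD, n = 3) in wild type and 21232 ± 1394 (n = 3) in knockout (log2 −0.17, 95% confidence interval −0.42 to 0.08, limma adjusted p = 0.532). Its second probe set had means of 681 ± 116 and 641 ± 106 (log2 −0.09) with overlapping groups. Among the arrays without bacterial RNA the differences were −0.02 and 0.17, and without wild-type array 1 that of the brighter one was −0.09.

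Breakdown of stored lipid was represented by Pnpla2, the adipose triglyceride lipase that removes the first fatty acid, and Lipe, the hormone-sensitive lipase that acts on the diacylglycerol left behind. Pnpla2 read 1007, 667 and 730.2 in wild-type lungs 1 to 3 and 601, 714 and 601 in knockout lungs 1 to 3. Wild-type array 1 stood above the other 5, which overlapped. Its means of 802 ± 181 (SD, n = 3) in wild type and 639 ± 65.0 (n = 3) in knockout differed by −0.31 on the log2 scale (95% confidence interval −0.70 to 0.08, limma adjusted p = 0.474). Among the arrays without bacterial RNA, the difference was −0.07, and without wild-type array 1 alone it was −0.13. A second probe set of Pnpla2, with signals from 26.9 to 57.7, was too dim to be tested.

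Lipe gave 229, 203 and 288 in wild-type lungs 1 to 3 and 227, 212 and 198 in knockout lungs 1 to 3. The knockout values lay inside the wild-type range apart from the lowest, that of knockout array 3, and wild-type array 3 was highest. With means of 239.8 ± 43.6 (SD, n = 3) in wild type and 212 ± 14.8 (n = 3) in knockout the log2 difference was −0.16 (95% confidence interval −0.62 to 0.29, limma adjusted p = 0.767), and it was 0.06, of the opposite sign, among the arrays without bacterial RNA. It was −0.02 without wild-type array 3 and −0.28 without wild-type array 2. Its second probe set was at 4.03 to 16.3 and was not tested.

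The members did not move as 1 group across the 6 arrays. Relative to the wild-type mean, knockout array 3 had the lowest value of Cd36, Pparg, Tcf21 and Lipe, and the highest of Fabp4. Knockout array 1 departed from the wild-type mean by no more than 0.24 log2 units in 6 of the 8 tested genes, the exceptions being Lpl at 0.49 and Pnpla2 at −0.39. For Pparg, knockout arrays 2 and 3 stood at −1.16 and −1.49, and for Fabp4 at 0.92 and 1.40. Correlations were taken as a description over all 6 arrays, both genotypes together, so that differences of genotype and handling enter each r. Fabp4 ran against Cd36 (r = −0.88), Lipe (−0.85) and Pparg (−0.83). Pparg ran with Lpl (0.76), Cd36 (0.74) and Tcf21 (0.72), and Tcf21 with Pnpla2 (0.93). Plin2 was close to unrelated to Pparg (0.06).

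**Figure D3:**
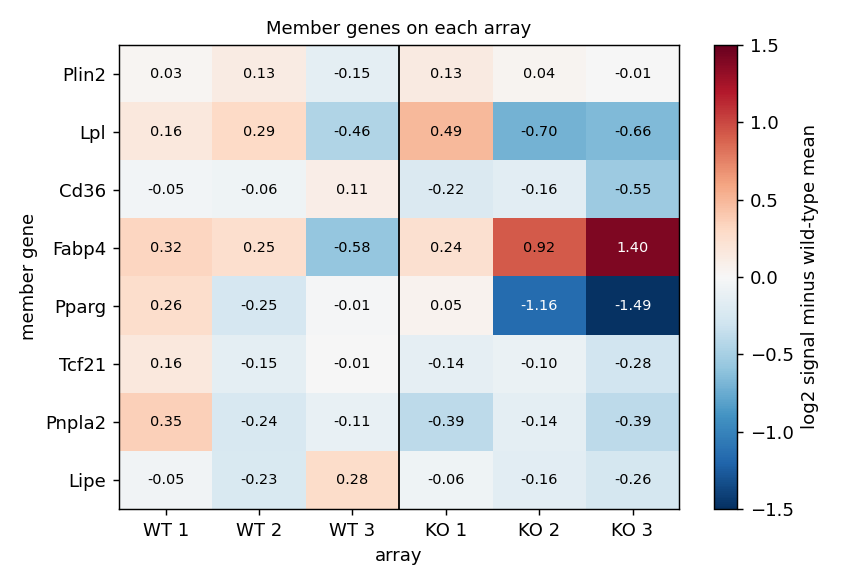
Log2 signal of the 8 tested genes on each array minus the wild-type mean of that gene (colour and printed value; red higher, blue lower; WT wild type, KO knockout). Pparg and Fabp4 depart most, in opposite directions, on knockout arrays 2 and 3, while Plin2 stays between −0.15 and 0.13 on all 6 arrays.

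Among all other tested genes, those whose log2 values followed a member most closely over the 6 arrays were S1pr2 (r = 0.986) and Dgat2 (r = 0.98) for Lpl. For Cd36 they were Rreb1 (r = 0.995) and St3gal6 (r = 0.993), for Fabp4 Actn2 (r = 0.992) and Prkab2 (r = 0.987), and for Pparg Bst1 (r = 0.985) and Agfg2 (r = 0.985). Plin2 was followed by Plcd3 (r = 0.991) and Qprt (r = 0.99), Tcf21 by Gm20559 (r = 0.995) and Tex14 (r = 0.994), Pnpla2 by Aspg (r = 0.997) and Crb3 (r = 0.991) and Lipe by Tiparp (r = 0.972) and Hk2 (r = 0.967). For the untested Cidec they were Ctu2 (r = 0.974) and Ahdc1 (r = 0.972). With only 6 arrays such values are common: between 7 and 76 of 12939 genes had an r over 0.95 with a given tested member.

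The wider lipofibroblast list, 15 further genes taken as markers or signals of this cell, was measured in full and was mixed in direction. None passed the adjusted threshold, 9 were lower and 6 higher, and the median was −0.11 (−0.20 to −0.05 over the alternatives). At an unadjusted p under 0.05 there were 4 lower and 2 higher genes, and the groups were apart in these 6 genes and in no other of the list. Over all tested probe sets 6.31% were lower and 7.32% higher at that p, and 9.36% and 10.7% lay apart. The counts were 2 lower and 1 higher on the 4 arrays without bacterial RNA. Pth1r, the receptor for the parathyroid hormone-related protein with which the epithelium induces lipid storage, was at 444 ± 74.7 and 697 ± 82.3 (log2 0.66, SE 0.162, limma adjusted p = 0.16). Limch1, an actomyosin regulator used as a marker of alveolar fibroblasts, was at 9814 ± 1203 and 7066 ± 646 (log2 −0.47, limma adjusted p = 0.16). Npnt, an integrin ligand of the alveolar wall, and the proteoglycan Gpc3 were at 9223 ± 285 and 7669.7 ± 201 and at 2814 ± 264 and 3516 ± 245. Fgf10, the mesenchymal growth factor of this lineage, was at 142 ± 26.9 and 184 ± 15.4 with overlapping groups, and Pdgfra, the growth factor receptor that it carries, at 2934 ± 169.9 and 2454 ± 214 without overlap. Both are familiar markers, added once the values were known. Further probe sets of Limch1 and Npnt had the same sign as the first, whereas those of Pdgfra had differences of either sign. Lepr, the remaining gene without overlap, was at 661 ± 20.1 and 509 ± 50.4, and its further probe sets were lower too.

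Among genes that act with the members at the droplet and in lipolysis, 2 had an unadjusted limma p under 0.05, in opposite directions. Over all tested probe sets 6.31% were lower and 7.32% higher at that p, and 9.36% and 10.7% lay apart. The lipolysis list had 0 genes at that p in either direction without the intensity trend or without wild-type array 1. Of 7 tested droplet genes 4 were lower and 3 higher (median −0.18, −0.28 to −0.01 over the alternatives), and 0 had an unadjusted p under 0.05. Those of smallest p were Hilpda, an inhibitor of Pnpla2 induced by low oxygen (739 ± 154 and 563 ± 76.5), Fitm1 and Fitm2, which partition triacylglycerol into droplets (43.0 ± 13.6 and 144 ± 149, and 513 ± 31.8 and 429 ± 55.1), and the droplet protein Plin3 (2032 ± 403 and 1773 ± 121). The high mean of Fitm1 rested on knockout array 3, at 315 against 42.1 and 74.5 on the other knockout arrays. Of 6 tested genes of lipolysis 4 were lower and 2 higher (median −0.12, −0.18 to −0.05 over the alternatives, the −0.05 on the arrays without bacterial RNA). Abhd5, the activator of Pnpla2, was at 2003 ± 331 and 1533 ± 179 (log2 −0.38, limma adjusted p = 0.299) and Pde3b, which breaks down the cyclic AMP that triggers lipolysis, at 998 ± 218 and 1371 ± 163 (log2 0.48, limma adjusted p = 0.297), both without overlap. G0s2, another inhibitor of Pnpla2, was at 6529.6 ± 492 and 6036 ± 122 with overlap. Mgll, which completes the breakdown, was at 1303 ± 40.5 and 1190.5 ± 69.9 without overlap, but its other probe sets had differences of the opposite sign.

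Around Lpl and Cd36, the gene of smallest p was Gpihbp1, the endothelial protein that carries Lpl to the capillary lumen. It read 2158, 2016 and 2217 in wild type and 2708, 2782 and 2972 in knockout (log2 0.41, SE 0.0927, limma adjusted p = 0.143). All knockout arrays were higher, and knockout array 1 was not apart from the other 2 in this gene. The lipoprotein receptor Scarb1 was at 1353 ± 33.4 and 995 ± 234 (log2 −0.47, limma adjusted p = 0.266), the endothelial lipase Lipg at 206 ± 8.93 and 170.0 ± 31.7, and Lmf2, a relative of the lipase maturation factor Lmf1, at 787 ± 133 and 630.3 ± 107. Of the 8 genes of this list 6 were lower and 2 higher (median −0.13, −0.22 to −0.03 over the alternatives). The second of the higher genes, Angptl4, an inhibitor of Lpl and a target of the Ppar receptors, was at 389 ± 122 and 456 ± 55.8 and was named after its value was seen.

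Relatives of Fabp4 and fatty acid activating enzymes were higher in 6 of 9 (median 0.11, 0.04 to 0.18 over the alternatives). Fabp7, the brain-type carrier, read 54.8, 182 and 137 in wild type and 245, 325 and 363 in knockout, higher without overlap (log2 1.47, limma adjusted p = 0.198). Fabp3, the heart-type carrier, was at 367 ± 157 and 788 ± 408 (log2 1.10, limma adjusted p = 0.298), led by knockout array 2 at 1259, and its second probe set had a smaller difference of the same sign. Acyl-CoA synthetases Acsl3 and Acsl5 were at 558 ± 34.1 and 680.1 ± 101 and at 3929 ± 315 and 4245 ± 546, with overlapping groups. Fabp5, the carrier of type II cells and macrophages, was at 27214 ± 3241 and 26035 ± 5337, a value looked up after the others were seen.

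Enzymes that build triacylglycerol were lower in 6 of 6 genes at their brightest probe sets, where 47.3% of all tested probe sets were lower. The list's median of −0.23 was −0.10 without knockout array 3 and −0.38 on the arrays without bacterial RNA, and 0 genes passed the adjusted threshold. Lpin1, which makes diacylglycerol, was at 760.4 ± 64.6 and 562 ± 25.1 without overlap (log2 −0.43, limma adjusted p = 0.202), Gpam, which starts the chain, at 5814 ± 600.2 and 4857 ± 576, Agpat2 at 1193 ± 96.4 and 1054 ± 183 and Mogat1 at 75.5 ± 21.9 and 59.6 ± 37.1. Mogat1 lay just above the brightness limit on average, with single arrays from 25.7 to 99.3 and overlapping groups, so its direction is uncertain. The second probe set of Dgat2, which adds the last fatty acid, had the opposite sign to its first (941 ± 138 and 879 ± 389). Fatty acid oxidation genes were lower in 6 of 9 (median −0.05, −0.21 to 0.01 over the alternatives). The largest departure there was Pdk4, a kinase that shifts fuel use from glucose to fat, which read 656, 618 and 684 in wild type and 249, 608 and 361 in knockout (log2 −0.78, limma adjusted p = 0.285). Its lowest value was on knockout array 1, the array with the highest Lpl. The carnitine transferase Cpt1a was at 1137 ± 197 and 973 ± 93.4, with overlap.

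Of 18 tested regulators of fat cell formation and cofactors of Pparg, 10 were lower and 8 higher (median −0.02, −0.08 to 0.03 over the alternatives), and none passed the adjusted threshold. The 4 at an unadjusted p under 0.05 (all tested probe sets: 6.31% lower) were lower without overlap (all tested: 9.36%). This count was 2 without the intensity trend, with sex as a term, without knockout array 3 or on the arrays without bacterial RNA. The genes were Klf15 (1473 ± 141 and 957 ± 223, log2 −0.64, limma adjusted p = 0.178), a glucocorticoid-induced factor, Cebpd (4846 ± 445 and 3311 ± 721, log2 −0.57, limma adjusted p = 0.182) and Cebpb (5641 ± 762 and 4687 ± 79.7), which precede Pparg in fat cell formation, and the acetyltransferase Ep300 (1471 ± 103 and 1224 ± 83.6). The second probe set of Cebpd was also lower, by less. Partner receptor Rxra was at 554 ± 66.6 and 613 ± 34.5, and the relatives Ppara at 213 ± 2.90 and 226 ± 87.2 and Ppard at 185 ± 29.2 and 184 ± 16.4, all with overlap. These 3 were named after their values were seen, and the second probe set of Rxra and 1 of the 2 further ones of Ppara had differences of the opposite sign.

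**Figure D4:**
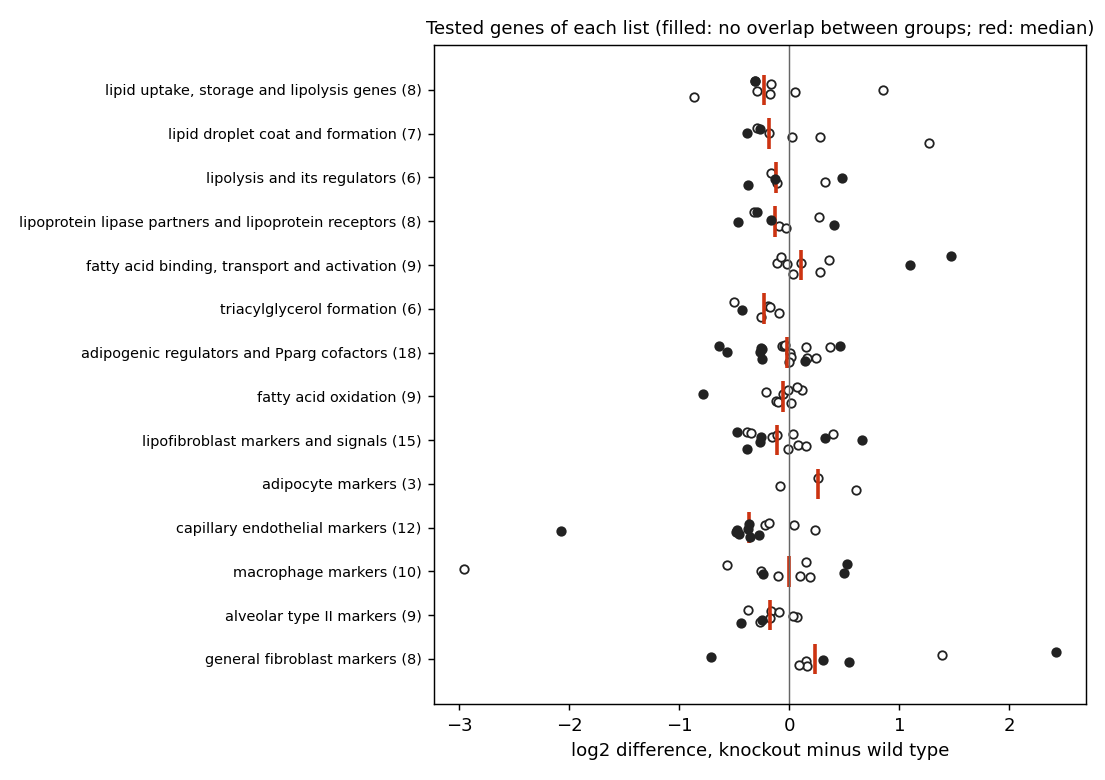
Log2 difference, knockout minus wild type, of each tested gene by list, 1 probe set per gene, with the number of tested genes in parentheses, filled points for genes whose groups do not overlap and a red line at the list's median. The other 13 medians lie between −0.23 and 0.26, and the capillary endothelial list lies lowest at −0.36.

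Cell type markers were set beside the members because lung RNA holds many cell types. Fat cell markers were dim: Adipoq ran from 19.6 to 65.4, Lep from 6.28 to 15.1, Retn from 5.54 to 27.8 and Ucp1 from 2.43 to 13.3 over the 6 arrays, all under the brightness limit on average. The 3 fat cell genes bright enough to be tested, Slc2a4, Thrsp and Adig, overlapped between the groups, and their summed signal was 409.5 to 437 in wild type and 492 to 504 in knockout, and without Slc2a4, the brightest, 90.3 to 206 and 161 to 206.

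Capillary endothelial markers, from the cells that also express Cd36, Lpl and Fabp4, were lower in 10 of 12 (median −0.36). Of these, 8 were without overlap and at an unadjusted limma p under 0.05, and none passed the adjusted threshold. The number lower at that p was 7 to 9 when 1 array was left out. Among all tested probe sets 9.36% were lower without overlap and 6.31% were lower at that p. Car4, a carbonic anhydrase of alveolar capillaries, was at 742 ± 129.8 and 185 ± 73.5 (log2 −2.08, limma adjusted p = 0.0852), Kdr at 1696 ± 258 and 1211 ± 68.5, Cldn5 at 4861 ± 275 and 3578 ± 579.8 and Ramp2 at 5433 ± 544 and 4194 ± 76.1. The summed signal of the list was 31859.9 to 35929 in wild type and 25727 to 28675 in knockout, lowest on knockout array 3, where Cd36 was lowest too. The 2 higher genes of the list were Tek (log2 0.24) and Egfl7 (0.05), both with overlap. Gpihbp1, an endothelial gene outside this list, and Fabp4 were also higher in knockout (log2 0.41 and 0.85). The part of endothelial cells in the Cd36, Lpl and Fabp4 values was not tested. Among the arrays without bacterial RNA, where wild-type array 2 alone stands for its genotype, the median of the list was −0.21 against −0.25 for Cd36. That list median was the smallest in size over the alternatives run, and 1 wild-type array is too few to support a count.

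Macrophage markers were divided. Of 10 tested, 5 were lower and 5 higher (median −0.0041, −0.25 to 0.10 over the alternatives), and the summed signal was 34048 to 47511 in wild type and 23776 to 35821 in knockout. Lyz2, made by macrophages and type II cells, carried this sum (29831 ± 6584 and 20303 ± 5392), and the other 9 genes summed to 9335 to 11131 in wild type and 9483 to 12004 in knockout. Marco, a scavenger receptor of alveolar macrophages, read 228, 227 and 117 in wild type and 198, 9.25 and 7.08 in knockout (limma adjusted p = 0.298). On knockout arrays 2 and 3, where Pparg was low, Marco was far under the brightness limit for testing. On knockout array 1 it was within the wild-type range. Marco was tested because its mean log2 value over all arrays lay just above that limit. Its p therefore rests in part on readings too dim to be reliable, and no conclusion is drawn from it. The complement genes C1qa (816 ± 102 and 1153 ± 145) and C1qb (809 ± 203 and 1143 ± 46.3) were higher on all knockout arrays. The part of macrophages in the Pparg values was not tested.

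The other mesenchymal and epithelial lists gave the surroundings of the lipofibroblast. Of 8 general fibroblast genes 7 were higher and 1 lower (median 0.24, 0.16 to 0.35 over the alternatives). Elastin (Eln), which alveolar fibroblasts deposit, was at 19013 ± 2212 and 11609 ± 1372 (log2 −0.71, limma adjusted p = 0.0934), and the matrix proteoglycans Lum and Dcn at 316 ± 185 and 1767 ± 1156 and at 1086 ± 476 and 2847 ± 1089. Their values on knockout arrays 1 to 3 were 783, 1478 and 3041 for Lum and 1604, 3312 and 3626 for Dcn, lowest on array 1 and highest on array 3, as for Fabp4. Type II markers, from the cell that receives the lipid, were lower in 7 of 9 (median −0.18, −0.26 to −0.07 over the alternatives), with a summed signal of 126635 to 163253 in wild type and 121907 to 142060.0 in knockout, ranges that overlapped. Slc34a2, the phosphate transporter, was at 18517 ± 2443 and 13664 ± 1946 and Lpcat1, which makes surfactant phosphatidylcholine, at 10581 ± 1076 and 8886 ± 174, both without overlap (all tested probe sets: 9.36% lower). Next in p were Sftpa1 (18750 ± 4608 and 14232 ± 1931) and Etv5 (2969 ± 274 and 2639 ± 55.9), both with overlap. The 2 higher genes, named after their values were seen, were Sftpc (50143 ± 6509 and 52420 ± 3618) and Sftpb (17452 ± 4124 and 17746 ± 3372). Their groups overlapped, and a second probe set of Sftpc had the opposite sign.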

How the data were processed

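The deposited values were MAS5 intensity values on a linear scale, made by the authors from Affymetrix whole-genome mouse arrays, per the labels' protocols and the submitters' processing notes; background settings and the MAS5 version are not given in the sources used here. On each of the 6 arrays the mean after trimming 2% at each end was 500, so no further scaling was applied, and values were taken to log2 with no pseudocount. MAS5 makes dim probe sets noisy, so those with a mean log2 value at or under the 40th percentile were left out.

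The 27022 others were fitted with limma 3.58.1 (lmFit, eBayes with an intensity trend) in R 4.3.3, two-sided, knockout minus wild type, 3 against 3, with Benjamini-Hochberg adjustment over all of them and a threshold of 0.05. An exact permutation test, two-sided, was run beside it on single values and cannot give a p under 0.1. Means are linear with the SD over arrays. The fit was tested on simulated data.

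Symbols came from the platform annotation, updated through RefSeq's GRCm38.p6 gene table, and promoter letters from RefSeq's table of the same build. A list gene stands at its probe set of highest mean. Named were all members, Carm1, up to 4 genes of smallest p from each list, and the 2 genes that best followed each member. The members and lists were chosen with earlier results of these data known. Alternatives changed the scaling, filter, pseudocount, variance model, terms, arrays and probe sets.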

Additional observations from a re-analysis of the deposited data

How the results depend on the processing

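The number of member probe sets past an adjusted p of 0.05 was 0 under all alternatives run. Among all tested probe sets that number was 8, and it was 0 without the intensity trend, 40 with robust variances, 0 with the replicate block, 4 with sex as a term, 2 with bacterial RNA as a term and 3 on the 4 arrays without bacterial RNA. Leaving out 1 array gave 0 to 13, the 13 without knockout array 1 and 2 without wild-type array 2. The 2 member probe sets lower at an unadjusted p under 0.05 became 4 with quantile normalization, 4 with median centring, 1 without the intensity trend, and 0 with the bacterial RNA term or without those arrays; leaving out 1 array gave 1 to 5, the 5 without knockout array 1. The members' median of −0.21 became −0.12 with no filter and −0.073 with the bacterial RNA term or without those arrays, and leaving out 1 array gave −0.27 to −0.11, the latter without knockout array 3. Plin2 turned to −0.0053 with median centring, to −0.073 with the bacterial RNA term or without those arrays, and ranged from −0.022 to 0.12 when 1 array was left out. Lipe turned to 0.064 with the bacterial RNA term or without those arrays. Of the list medians, the droplet list moved between −0.28 (without the bacterial RNA arrays) and −0.01 (without knockout array 2), the macrophage list reached −0.25 without knockout array 1 and the lipofibroblast list −0.20 without wild-type array 3. The capillary endothelial median of −0.36 became −0.21 with the bacterial RNA term or without those arrays. At their brightest probe sets the other 6 tested member genes kept their sign under all alternatives run. The cause of these changes was not tested. Same-numbered samples did not deviate together (r = −0.14, −0.38 and −0.0056), but with so few arrays these values cannot show whether the numbers pair them. Under the replicate block the members' median was −0.21 and the count lower at an unadjusted p under 0.05 was 2.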
